A study of Mus musculus with 8 samples.

Results

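The genes described here are 10 transcription factor genes of the dental mesenchyme: Msx1, Msx2, Pax9, Barx1, Lhx6, Lhx8, Dlx1, Dlx2, Prrx1 and Prrx2. They were chosen by name, as factors known for this tissue, with earlier results of these data known. All 10 are among the 22609 gene symbols of the count table. RNA sequencing was done on total RNA of immortalized mouse dental papilla cells of 2 genotypes, iBmp2fx/fx cells with both Bmp2 alleles floxed and iBmp2ko/ko cells with Bmp2 deleted, each harvested after 6, 24, 48 and 72 h of culture. The design text of the series gives 8 h where the sample labels give 6 h, and the labels were used. Each genotype had 1 library per time (8 libraries, 25890110 to 32415665 reads counted on genes), so the culture times stand in for replicates. Nothing in the labels gives separate cultures, animals or clones behind a library. The p-values below therefore measure the spread between these libraries. Change with time is part of that spread, except in fits that hold culture time as a block or slope. The genotype cannot be told apart from other differences between the cell lines. No agent other than the culture itself is named for these libraries, and how Bmp2 was deleted and the age and strain of the source animals are not given in the sources used here.

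The mesenchyme under the early tooth bud comes from the cranial neural crest, and it carries a set of homeodomain and paired-domain factors that the dental papilla inherits. Msx1 and Pax9 are needed for the tooth bud to progress and act together on Bmp4 and other signals. Msx and Dlx genes are known targets of BMP signalling, a pathway in which Bmp2 is a ligand, while Barx1 marks the molar field and the Dlx, Lhx and Prrx genes pattern the jaw mesenchyme.

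The library labelled iBmp2ko/ko of 24 h stood apart from its group, and its values for the members are given separately. Over the 13121 genes tested, its root mean square difference from the iBmp2fx/fx library of 6 h was 0.21 in log2 CPM, the reads divided by library size, the smallest of all 28 library pairs. The next smallest pair, iBmp2fx/fx at 24 and 48 h, differed by 0.39. Set against counting noise, the chi-square per gene of this closest pair had a mean of 5.02 and a median of 1.06 over 12880 genes, while the medians of the other pairs ran from 5.28 to 60.0. Both values of the closest pair lay above those that counting noise alone would give. Whether the library holds the cells that its label names was not tested, and it was kept under its label. From the iBmp2ko/ko libraries of 6, 48 and 72 h the library of 24 h differed by 0.80, 0.79 and 1.00. Over the 8 dental mesenchyme genes with enough reads to test, its distance was 0.16 from iBmp2fx/fx at 6 h and 0.70 to 1.54 from the other iBmp2ko/ko libraries. Bmp2 itself does not check the labels, with 1 read in the iBmp2fx/fx library of 24 h and 0 in the other 7. The main comparison rests on the 6 libraries of the harvest times that the study's methods name, without those of 24 h.

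Several defining markers of other cell types were at the floor in all libraries. Krt5, Shh, Amelx, Ambn and Enam of the dental epithelium, Ptprc and Emr1 of leukocytes, Emcn of endothelium, Sox10 of glia, and Myog and Myf5 of muscle had at most 3 reads in every library, and so did the odontoblast markers Dspp and Ibsp. The 8 general mesenchyme markers summed to 13344 to 18834 CPM in the 3 iBmp2fx/fx libraries and 15994 to 20638 CPM in the 3 iBmp2ko/ko libraries. Within that list Vim, Col3a1 and Thy1 were higher in each of the 3 iBmp2ko/ko libraries, as were 9.92% of all genes tested. The averages were 947 and 2689 CPM for Col3a1 and 99.7 and 224 for Thy1. By the study's limit 2 of the 8 were called higher (3.31% of all genes). Pdgfra and Fn1 went the other way, with 226 and 164 CPM on average for Pdgfra and 6550 and 4567 for Fn1, neither called. The library labelled iBmp2ko/ko of 24 h had 911 CPM of Col3a1 and 102 of Thy1. The part of these genes in the results was not tested. The 7 odontoblast markers summed to 129 to 238 CPM and 86.1 to 121 CPM. The 6 macrophage and leukocyte markers summed to 4.41 to 14.4 CPM and 2.93 to 3.50 CPM, and the 4 muscle markers to 7.55 to 13.4 CPM and 3.59 to 5.17 CPM. The epithelial (1.14 to 1.85 and 0.950 to 1.93 CPM), endothelial (1.93 to 3.32 and 1.61 to 3.63 CPM) and glial sums (1.31 to 1.63 and 1.65 to 3.01 CPM) were also low. Some markers in these lists were well above the floor, such as Cd68 with 55 to 397 reads and the muscle gene Des with 70 to 427. Called lower by the study's limit were 1 of 4 tested odontoblast, 2 of 2 leukocyte and 1 of 1 muscle markers. That share was 4.04% over all genes. The epithelial and endothelial lists, with 2 tested markers each, had 1 called higher and 1 lower, and no glial marker was called. Alpl, the alkaline phosphatase gene of mineralizing cells, ranged from 12.6 to 61.7 CPM in the 3 iBmp2fx/fx libraries and from 0.551 to 1.45 CPM in the 3 iBmp2ko/ko libraries, while most of the odontoblast sum was Nes. At 24 h Alpl had 37.4 CPM in iBmp2fx/fx cells and 12.9 in the library labelled iBmp2ko/ko, whose odontoblast, leukocyte and muscle sums were 134, 6.49 and 9.98 CPM. At the other 3 times the odontoblast, leukocyte and muscle sums were lower in iBmp2ko/ko cells together with Dlx2 and Prrx2, and their part in the results was not tested. In such bulk libraries, fewer cells of a type and less RNA per cell cannot be told apart.

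The members lie on 6 mouse chromosomes, and 4 of them on chromosome 2, as does Bmp2. In mm9 with the GENCODE M1 models, Dlx1 lies at chr2:71366170-71372038 on the plus strand and Dlx2 at chr2:71381466-71384811 on the minus strand, so that they face each other across 9.43 kb. Prrx2 lies at chr2:30690492-30736761 (plus) and Lhx6 at chr2:35937470-35960928 (minus). Prrx1, the paralog of Prrx2, lies at chr1:165175247-165243841 (minus). Msx1 lies at chr5:38211724-38215822 (minus), Msx2 at chr13:53562250-53568443 (minus), Barx1 at chr13:48758367-48761876 (plus), Pax9 at chr12:57792754-57813809 (plus) and Lhx8 at chr3:153969260-153993615 (minus).

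Promoters are shown for the paralog pairs Dlx1 and Dlx2 and Prrx1 and Prrx2, because the level of a paralog differed between the genotypes most in these pairs. Each runs from 250 bases before to 50 after the start site in RefSeq on GRCm38.p6, a build other than that of the counts, and is written 5′ to 3′ on the gene's strand. The windows are chr2:71529195-71529494 (plus) for Dlx1, chr2:71546705-71547004 (minus) for Dlx2, chr1:163313601-163313900 (minus) for Prrx1 and chr2:30845117-30845416 (plus) for Prrx2. Capitals mark GGCGCC, a sequence known to bind the BMP-activated Smads, or TAATTA, the core bound by many homeodomain proteins.
Dlx1 promoter: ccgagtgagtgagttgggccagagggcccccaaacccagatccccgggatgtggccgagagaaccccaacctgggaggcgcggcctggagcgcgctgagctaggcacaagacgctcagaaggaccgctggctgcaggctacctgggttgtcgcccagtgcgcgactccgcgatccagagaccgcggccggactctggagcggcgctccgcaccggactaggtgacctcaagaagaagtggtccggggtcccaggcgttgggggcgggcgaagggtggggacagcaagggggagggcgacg
Dlx2 promoter: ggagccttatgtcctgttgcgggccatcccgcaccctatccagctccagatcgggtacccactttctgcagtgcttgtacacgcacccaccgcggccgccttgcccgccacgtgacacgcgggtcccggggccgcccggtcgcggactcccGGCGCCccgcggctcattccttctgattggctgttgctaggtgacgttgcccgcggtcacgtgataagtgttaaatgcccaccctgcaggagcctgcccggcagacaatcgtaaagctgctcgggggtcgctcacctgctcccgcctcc
Prrx1 promoter: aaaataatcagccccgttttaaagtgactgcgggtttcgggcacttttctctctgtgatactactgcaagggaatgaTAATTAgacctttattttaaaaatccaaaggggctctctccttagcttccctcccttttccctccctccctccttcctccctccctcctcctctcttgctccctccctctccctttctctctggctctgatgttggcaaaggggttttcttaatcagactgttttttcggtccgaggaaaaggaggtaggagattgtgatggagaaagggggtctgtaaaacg
Prrx2 promoter: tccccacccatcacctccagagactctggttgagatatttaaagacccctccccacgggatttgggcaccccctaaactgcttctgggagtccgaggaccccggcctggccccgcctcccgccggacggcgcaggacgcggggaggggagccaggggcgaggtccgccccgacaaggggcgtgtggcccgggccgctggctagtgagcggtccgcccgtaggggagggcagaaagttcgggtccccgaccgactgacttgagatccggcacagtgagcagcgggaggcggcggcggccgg

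GGCGCC, GTCTAGAC (the palindromic Smad box) and TAATTA are each their own reverse complement, so 1 search covers both strands, and none overlaps another in these windows. In the Dlx2 window GGCGCC has its first base at position -99 from the start, and in the Prrx1 window TAATTA has it at -173. The Dlx1 and Prrx2 windows hold none of the 3. Of 32841 RefSeq promoter windows of the same length, 11.9% hold GGCGCC, 5.29% hold TAATTA and 0.213% hold GTCTAGAC. The windows of Dlx1, Dlx2 and Prrx2 hold 27, 29 and 28 CG dinucleotides and that of Prrx1 holds 6, against a median of 7 and an upper quartile of 20 over all windows. Among the other members, Msx2 has TAATTA at -187, Pax9 has GGCGCC at -45 and Barx1 has it at -31. A match describes the letters and not a bound site.

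Levels of different genes were set against each other per kilobase of exon, as RPKM, the reads divided by exon length and by library size. In iBmp2fx/fx cells the order was Prrx2 at 77.1 ± 7.08 RPKM (SD, n = 3), Prrx1 at 33.2 ± 8.32, Dlx2 at 17.1 ± 2.71, Lhx6 at 4.62 ± 0.289, Msx1 at 3.64 ± 0.0992, Dlx1 at 1.84 ± 0.405, Msx2 at 1.41 ± 0.156 and Pax9 at 0.415 ± 0.0347. In this order the neighbours Dlx1 and Msx2 lay within their spread of each other. In iBmp2ko/ko cells Prrx1 came first at 29.8 ± 5.80 RPKM and Prrx2 second at 23.3 ± 5.47, which overlap within their spread. Lhx6 followed at 3.62 ± 0.333, Dlx2 at 3.01 ± 2.98, Msx1 at 2.11 ± 0.278, Msx2 at 1.02 ± 0.182, Dlx1 at 0.933 ± 0.445 and Pax9 at 0.602 ± 0.0911. There, Dlx2 did not differ beyond the spread from its neighbours Lhx6 and Msx1, nor Dlx1 from Msx2 and Pax9. Barx1 and Lhx8 were not detectable at this depth: Barx1 had 1 read in the iBmp2fx/fx library of 72 h, and Lhx8 had 1 in that of 48 h and 1 in the iBmp2ko/ko library of 72 h. A count of 3, taken as the floor, was worth 0.0929 to 0.124 CPM across the libraries.

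**Figure D1:**
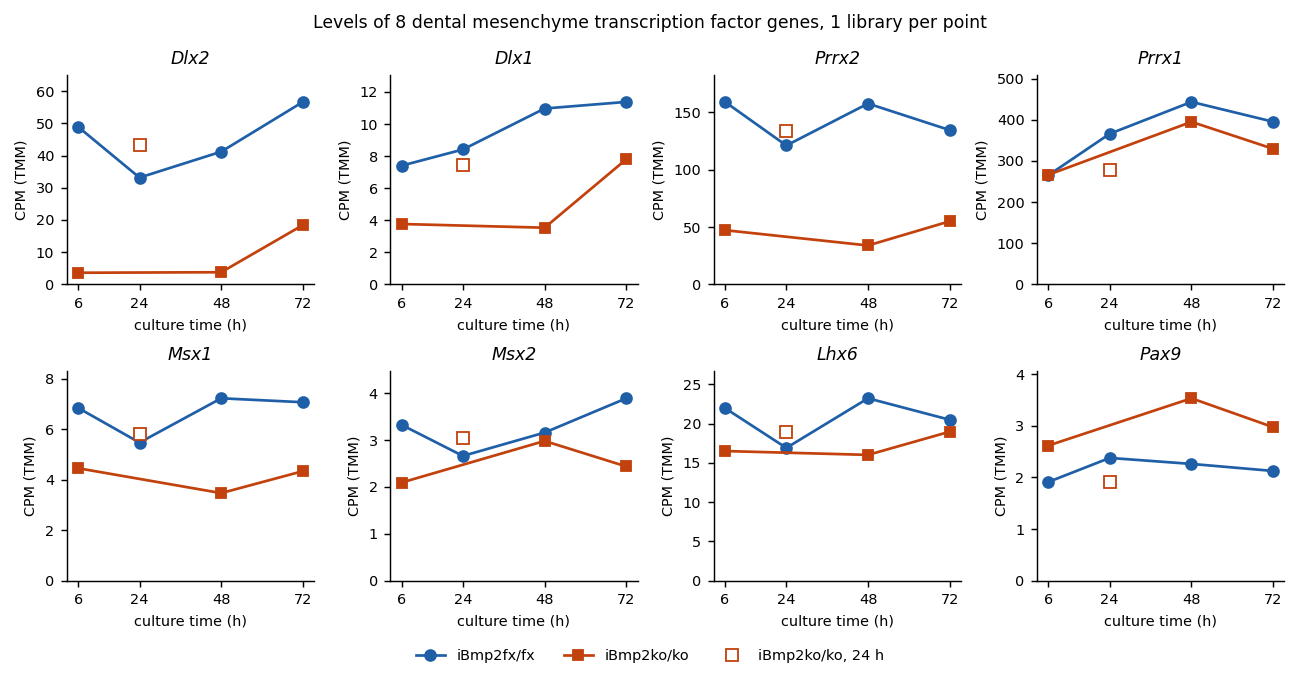
Levels of the 8 members with enough reads to test, in CPM after TMM scaling, against culture time in hours, with 1 point per library and each axis from 0. The open square is the iBmp2ko/ko library of 24 h; for Dlx2 it stands at 43.3 CPM, while the filled iBmp2ko/ko points run from 3.60 to 18.4 CPM.

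The first question was which of these factors differed between iBmp2ko/ko and iBmp2fx/fx cells. Dlx2 and Prrx2 fell and no member rose. The groups of 3 libraries did not overlap for 6 of the 8 tested members: Msx1, Msx2, Lhx6, Dlx2 and Prrx2 were lower in every iBmp2ko/ko library (10.1% of all genes tested were lower in this way) and Pax9 was higher in every one (9.92% of all genes). By the limit in the study's methods, a p-value under 0.05 before adjustment together with a log2 fold change beyond -1 or 1, 2 of the 8 were called, Dlx2 and Prrx2, against 4.04% of all genes called lower and 7.35% called in either direction. The captions of the study name limits on adjusted values instead, so both kinds are given here. With the p-value adjusted over all genes, Prrx2 alone was called, against 1.29% lower and 2.19% in either direction. With the block described below, 3 of the 8 were called by the adjusted limit, Dlx1, Dlx2 and Prrx2, against 4.67% of all genes called lower and 8.45% in either direction. DESeq2 called Dlx2 and Prrx2 by that limit (5.02% of all genes). Over all 8 libraries Prrx2 alone passed the study's limit (1.47% of all genes lower), or Dlx2 and Prrx2 with the block (2.8% lower), and by edgeR 0 of the members passed the adjusted limit in either fit (0% of all genes without the block and 0.283% with it). The median log2 fold change was -0.63 over the 8 members and 0.03 over all 13121 genes. Since the members were chosen with earlier results of these data known, these shares and medians describe them and are no test of the set.

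Dlx2, a homeodomain factor of the proximal jaw and the dental mesenchyme, had the largest fitted change of the members. Its level in iBmp2fx/fx cells was 48.9, 41.2 and 56.7 CPM at 6, 48 and 72 h. The iBmp2ko/ko cells had 3.60, 3.76 and 18.4 CPM at these times. All 3 iBmp2ko/ko values lay below all iBmp2fx/fx values, and the library of 72 h stood well above the other iBmp2ko/ko libraries. The means were 48.9 ± 7.73 and 8.59 ± 8.51 CPM (SD, n = 3 each), a 5.69-fold difference. The fitted log2 fold change was -2.55 (SE 0.64, unadjusted p = 0.00482), with an adjusted p of 0.118 by edgeR's quasi-likelihood test. With culture time as a block, which the pairing of the libraries by time allows, it was -2.91 (SE 0.38) and passed the adjusted limit (edgeR, adjusted p = 0.00227). At 24 h Dlx2 had 33.2 CPM in iBmp2fx/fx cells and 43.3 in the library labelled iBmp2ko/ko, the reverse order. Over all 8 libraries the fold change was -1.38 and no longer passed (edgeR, unadjusted p = 0.0848), while with the block it was -2.13 and passed the study's limit (edgeR, unadjusted p = 0.0234, adjusted p = 0.152). Without the iBmp2ko/ko library of 72 h, the 5 other libraries gave -3.74 (edgeR, adjusted p = 0.00171).

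Dlx1, the partner of Dlx2 in the convergent gene pair, had 7.40, 11.0 and 11.4 CPM in iBmp2fx/fx cells at 6, 48 and 72 h and 3.76, 3.53 and 7.81 CPM in iBmp2ko/ko cells. The groups overlapped, since the iBmp2ko/ko library of 72 h lay above the iBmp2fx/fx library of 6 h. At each of the 3 times, iBmp2ko/ko was the lower of the pair. The means were 9.92 ± 2.19 and 5.03 ± 2.40 CPM (SD, n = 3), and the fitted log2 fold change of -0.997 (SE 0.37, unadjusted p = 0.0301, adjusted p = 0.288 by edgeR) lay just inside the limit of 1. With the block it was -1.05 (SE 0.22) with an adjusted p of 0.0158 (edgeR), past both limits. The call was lost in the blocked fit of all 8 libraries, with -0.825 (edgeR, adjusted p = 0.137), and in that without the libraries of 48 h, with -0.78 within the fold limit. At 24 h the values were 8.41 and 7.47 CPM.

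The long non-coding RNA Dlx1as is transcribed from the strand opposite Dlx1 (chr2:71354511-71375948 in mm9, minus strand), and 20.6% of its exonic bases are shared with Dlx1 exons. In the separate table of lncRNA counts it had 4.08, 6.17 and 5.46 CPM in iBmp2fx/fx cells at 6, 48 and 72 h and 1.54, 3.11 and 2.64 CPM in iBmp2ko/ko cells. The groups did not overlap, and at 24 h it had 5.89 and 4.88 CPM. The log2 fold change was -1.11 (SE 0.34, unadjusted p = 0.0112, adjusted p = 0.290 over 1346 lncRNAs by edgeR), past the study's limit, as were 6.91% of the lncRNAs, while 1.49% passed the adjusted limit. With the block its adjusted p was 0.00912 (edgeR), and 5.94% of the lncRNAs passed. The gene table lists the same symbol with 145 reads over the 8 libraries in place of 999, and there its log2 fold change was -0.60 (SE 0.44, adjusted p = 0.620 by edgeR). The strand setting of the counting is not given in the sources used here, so reads of Dlx1 and Dlx1as over the shared bases cannot be told apart.

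Prrx2, a paired-related homeobox factor of craniofacial and limb mesenchyme, was the one member called by both limits in the edgeR fit of the 6 libraries without the block. It had 159, 158 and 135 CPM in iBmp2fx/fx cells at 6, 48 and 72 h. In iBmp2ko/ko cells it had 47.2, 33.9 and 55.0 CPM at the same times. The groups were widely separated at all 3 times. The means were 150 ± 13.8 and 45.4 ± 10.7 CPM (SD, n = 3), a 3.32-fold difference, and the log2 fold change was -1.74 (SE 0.21, unadjusted p = 6.34e-05, adjusted p = 0.0130 by edgeR). At 24 h the libraries had 121 and 134 CPM, with the one labelled iBmp2ko/ko slightly higher. Over all 8 libraries the fold change was -1.08 and its adjusted p was 0.483 (edgeR). The adjusted call was lost when any 1 of the 4 libraries of 6 and 48 h was left out, with fold changes from -1.79 to -1.57 and adjusted p-values from 0.0531 to 0.0757 (edgeR), and was kept without either library of 72 h.

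Prrx1, which acts partly redundantly with Prrx2, had 265, 443 and 395 CPM in iBmp2fx/fx cells at 6, 48 and 72 h and 266, 395 and 329 CPM in iBmp2ko/ko cells. The groups overlapped, and both genotypes were lowest at 6 h. The 3 libraries of each genotype averaged 368 ± 92.1 and 330 ± 64.2 CPM (SD), and the fitted log2 change was -0.16 (SE 0.26, adjusted p = 0.850 by edgeR). At 24 h it had 366 and 277 CPM.

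The difference between paralogs was tested on the log2 ratio of their counts within each library. The Prrx2 to Prrx1 ratio was -1.26 ± 0.45 in iBmp2fx/fx cells and -2.87 ± 0.58 in iBmp2ko/ko cells (SD, n = 3), a difference of -1.61. The Dlx2 to Dlx1 ratio was 2.32 ± 0.41 and 0.42 ± 0.71, a difference of -1.90. For both pairs no library of one genotype reached into the range of the other, and the two-sided exact permutation p was 0.1, the smallest that 3 against 3 libraries can give. The adjusted value over the 3 pairs was 0.15, so the design could not have passed 0.05. Paired by culture time, a comparison added after seeing the data, the change was negative at all 3 times for both pairs, from -2.05 to -1.03 for Prrx2 to Prrx1 and from -2.79 to -1.08 for Dlx2 to Dlx1. The two-sided exact permutation p over such pairs cannot go below 0.25, its value for both. The Msx1 to Msx2 ratio was 1.03 ± 0.17 and 0.71 ± 0.45, which overlapped (difference -0.32, exact permutation p = 0.4). With the iBmp2fx/fx library of 24 h added, the exact permutation p for the first 2 pairs was 0.0571, again the smallest possible, and with all 8 libraries it was 0.114.

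**Figure D2:**
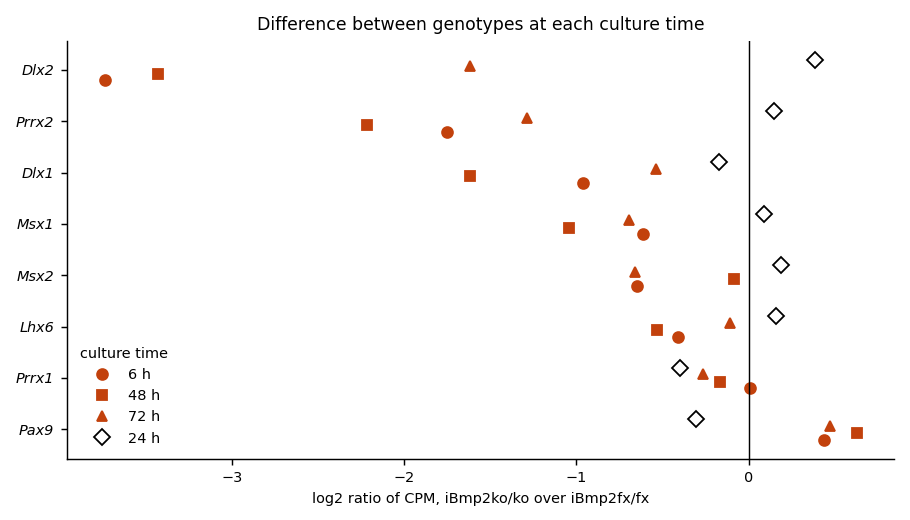
The log2 ratio of CPM in iBmp2ko/ko over iBmp2fx/fx cells for each member, with a filled symbol per culture time for 6, 48 and 72 h and an open diamond for 24 h. Dlx2 runs from -3.74 to -1.62 at the filled times and stands at 0.39 at 24 h, and Pax9 runs from 0.44 to 0.63 and stands at -0.30.

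The Msx genes code for homeodomain repressors that respond to BMPs in the dental mesenchyme. Msx1 had 6.84, 7.22 and 7.06 CPM in iBmp2fx/fx cells at 6, 48 and 72 h and 4.45, 3.47 and 4.34 CPM in iBmp2ko/ko cells. Every iBmp2ko/ko value lay below every iBmp2fx/fx value, with means of 7.04 ± 0.192 and 4.09 ± 0.538 CPM (SD, n = 3) and a 1.72-fold difference. Its log2 fold change of -0.79 (SE 0.25, unadjusted p = 0.0142 by edgeR) missed the fold limit, and its adjusted p was 0.209 by edgeR. With the block the adjusted p was 0.0222 (edgeR) at a fold change of -0.80, still within the fold limit. At 24 h Msx1 had 5.47 and 5.81 CPM. Msx2 had 3.32, 3.16 and 3.89 CPM in iBmp2fx/fx cells and 2.09, 2.98 and 2.44 CPM in iBmp2ko/ko cells. These groups were close together, with a gap at 48 h of only -0.08 on the log2 scale, and the fitted change was -0.47 (SE 0.29, adjusted p = 0.549 by edgeR). At 24 h it had 2.66 and 3.04 CPM.

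Pax9, the paired-domain partner of Msx1, had 1.91, 2.26 and 2.13 CPM in iBmp2fx/fx cells at 6, 48 and 72 h and 2.62, 3.53 and 2.97 CPM in iBmp2ko/ko cells. It was the one tested member with a higher mean in iBmp2ko/ko cells. These values rest on 61 to 109 reads per library. The log2 fold change was 0.53 (SE 0.29, unadjusted p = 0.106, adjusted p = 0.482 by edgeR), which missed both limits. At 24 h the order turned, with 2.38 CPM in iBmp2fx/fx cells and 1.91 in the library labelled iBmp2ko/ko.

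Lhx6, a LIM-homeodomain factor of the jaw mesenchyme that works alongside Lhx8, had 22.0, 23.2 and 20.5 CPM in iBmp2fx/fx cells and 16.5, 16.0 and 19.0 CPM in iBmp2ko/ko cells. The groups were separate but close at 72 h. The log2 fold change was -0.36 (SE 0.18, unadjusted p = 0.0844, adjusted p = 0.440 by edgeR). At 24 h it had 16.9 and 18.9 CPM. Of 10 genes for LIM-domain partners, adaptors and regulators of such factors, 6 were tested and none passed either limit by edgeR, where 7.35% and 2.19% of all genes did. Their median log2 fold change was 0.09. The adaptor Ldb1, the member of that list farthest from 0, had 107 ± 5.56 and 144 ± 21.5 CPM (SD, n = 3), and its fitted log2 change was 0.43 (adjusted p = 0.344 by edgeR), with 99.8 and 107 CPM at 24 h.

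Culture time was examined next, as a slope per doubling of hours over the same 6 libraries. No member passed, with adjusted p-values from 0.239 to 0.976 (edgeR), and no gene of the table passed either, although 21.1% of all genes had an unadjusted p under 0.05. The slopes ran from -0.03 to 0.25. Prrx1 had 0.15 (SE 0.06, unadjusted p = 0.0513 by edgeR) and Dlx2, with the steepest slope, had 0.25 (SE 0.18). A genotype by time term also passed for no member or other gene after adjustment by edgeR, with 0.48% of genes under 0.05 unadjusted. That term was 0.49 (SE 0.33, unadjusted p = 0.194 by edgeR) for Dlx2, whose iBmp2ko/ko level at 72 h was the highest of the 3.

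The iBmp2ko/ko library of 24 h lay nearer to the iBmp2fx/fx mean for 6 of the 8 members (65% of all genes did so): Msx1, Msx2, Pax9, Dlx1, Dlx2 and Prrx2. Lhx6 and Prrx1 lay nearer to the iBmp2ko/ko mean. On the log2 CPM scale Dlx2 in that library was -0.16 from the iBmp2fx/fx mean and 2.77 from the iBmp2ko/ko mean, and Prrx2 was -0.16 and 1.59 from them. The iBmp2fx/fx library of 24 h also lay nearer to the iBmp2fx/fx mean for 6 of the 8 members (73% of all genes). In it, Msx2 and Lhx6 lay nearer to the iBmp2ko/ko mean. A term for a different genotype effect at 24 h, added after seeing the data and resting on 1 library per genotype at that time, was 1.88 for Prrx2 (SE 0.44, unadjusted p = 0.00333, adjusted p = 0.435 by edgeR) and 2.90 for Dlx2 (SE 1.27, unadjusted p = 0.0554 by edgeR). After adjustment by edgeR 0 of 13053 genes passed this term, and 5.02% were under 0.05 unadjusted.

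Other transcription factors of the jaw and dental mesenchyme were read from a list of 38, of which 36 are in the table and 26 were tested. By the study's limit 5 rose (3.31% of all genes) and 4 fell (4.04%), and by the adjusted limit 2 rose (0.899%) and 1 fell (1.29%). With the block 5 rose (3.78% of all genes) and 4 fell (4.67%) by the adjusted limit. The median log2 fold change was -0.31. Over all 8 libraries the first limit left 3 higher (2.08% of all genes) and 2 lower (1.47%), and by edgeR the adjusted limit left 0, as of all genes (0%). Tfap2a and Tfap2b were not analysed here.

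Dlx3, a family member tied to tooth and hair formation, had 152, 105 and 39 reads in iBmp2fx/fx cells at 6, 48 and 72 h and 1, 1 and 0 in iBmp2ko/ko cells. The pooled 296 against 2 reads give a 134-fold higher level in iBmp2fx/fx cells, with a 95% counting interval of 36.7 to 1110, and the adjusted p was 0.0130 by edgeR. At 24 h the order was reversed, with 24 reads in iBmp2fx/fx cells and 115 in the library labelled iBmp2ko/ko. Of the other Dlx genes, Dlx4 had 0.773 ± 0.451 and 0.660 ± 0.374 CPM (SD, n = 3), and Dlx5 and Dlx6 had too few reads to test.

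Sp7, the osteoblast and odontoblast factor osterix, had 2.13 ± 1.36 CPM in iBmp2fx/fx and 0.123 ± 0.0740 CPM in iBmp2ko/ko cells (SD, n = 3). Its log2 fold change was -4.12 and its adjusted p was 0.0505, or 0.000834 with the block (edgeR). Foxf1a and Tbx2 also fell by the study's limit, by 1.27 and 1.32 on the log2 scale. Foxd1, a forkhead factor of neural crest mesenchyme, had 6.01 ± 1.29 and 21.1 ± 2.27 CPM (SD, n = 3), and the nuclear receptor Nr2f1 had 3.24 ± 0.376 and 9.22 ± 1.14 CPM. Both rose past the adjusted limit, with adjusted p-values of 0.0165 and 0.0306 (edgeR). The hedgehog effectors Gli1 and Gli2 and the palate and tooth factor Osr2 rose by the study's limit, with fold changes of 1.35, 1.19 and 1.33, and all 3 missed the adjusted limit without the block. Runx2, needed for bone and tooth formation, had 92.3 ± 14.9 and 63.7 ± 21.4 CPM (SD, n = 3) and missed both limits. At 24 h the order was turned for Sp7, with 0.319 CPM in iBmp2fx/fx cells and 0.675 in the library labelled iBmp2ko/ko, for Tbx2, with 1.17 and 2.29, for Gli2, with 1.53 and 1.43, and for Osr2, with 9.02 and 6.00. It was kept for Foxf1a (25.7 and 18.5 CPM), Foxd1 (3.80 and 5.89), Nr2f1 (2.66 and 3.23), Gli1 (0.390 and 0.975) and Runx2 (93.5 and 81.0).

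Of 12 signalling genes linked to Msx1 and Pax9 in tooth development, 9 were tested. By the study's limit 3 fell and 1 rose (7.35% of all genes in either direction), and by edgeR none passed the adjusted limit without the block. With it 4 fell and 1 rose (8.45% of all genes). Over all 8 libraries 2 were lower and 1 higher by the study's limit (3.55% of all genes in either direction), and by edgeR 0 passed the adjusted limit (0% of all genes). The median log2 fold change was -0.80. Bmp4, named above with Msx1 and Pax9, had 28.5 ± 6.20 and 20.5 ± 11.4 CPM (SD, n = 3), and the groups overlapped. Its fold change of -0.47 missed both limits (adjusted p = 0.694 by edgeR), and at 24 h it had 41.3 and 21.0 CPM. Lef1, the Wnt effector of the tooth bud, had 10.8 ± 2.02 and 3.22 ± 1.29 CPM (SD, n = 3), with a fold change of -1.77 and an adjusted p of 0.0508 (edgeR). The Wnt inhibitor gene Sfrp2 and the growth factor gene Fgf10 had fold changes of -2.40 and -1.69, and Wnt5a, a ligand of the dental mesenchyme, had 1.38. Ptch1, the hedgehog receptor gene, had 21.0 ± 8.44 and 10.3 ± 6.76 CPM (SD, n = 3) and missed both limits in the 6 libraries without the block, while with it the gene fell past the adjusted limit, with a change of -1.25 and an adjusted p of 0.0182 (edgeR). At 24 h Lef1 had 5.93 CPM in iBmp2fx/fx cells and 13.4 in the library labelled iBmp2ko/ko, and Wnt5a had 11.8 and 7.65, both the reverse of the order at the other times. Sfrp2 had 44.8 and 7.32 CPM there, Fgf10 had 25.4 and 8.70, and Ptch1 had 20.7 and 11.2.

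**Figure D3:**
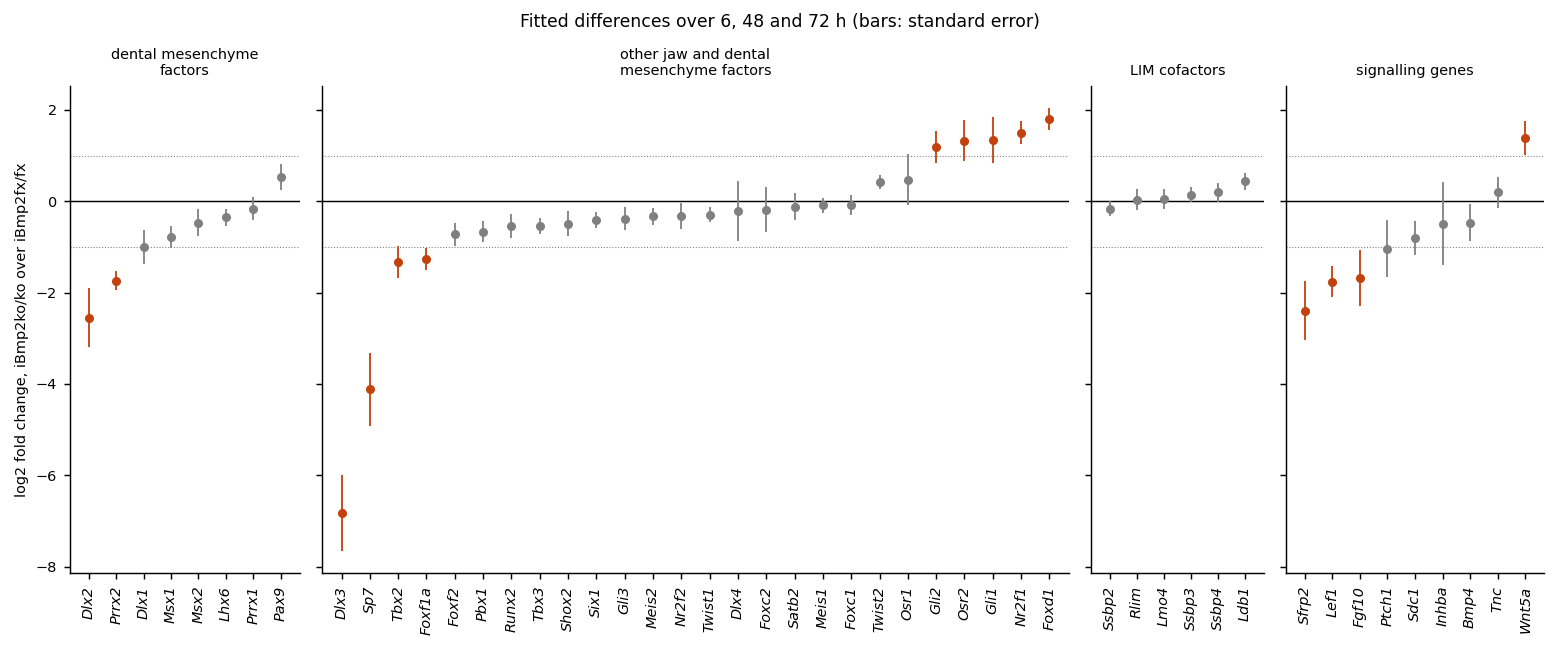
Fitted log2 fold changes of iBmp2ko/ko over iBmp2fx/fx cells over 6, 48 and 72 h for the members and for the tested genes of the 3 lists, with bars for the standard error. Red points passed the study's limit (fold change beyond the dotted lines at -1 and 1 and an unadjusted p under 0.05); among the members these are Dlx2 at -2.55 and Prrx2 at -1.74.

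Neighbouring genes were read for the members that passed. Within 500 kb of the Dlx2 start, 10 genes other than Dlx1 were tested, with a median log2 fold change of -0.06 and a range from -2.69 to 0.49. The lowest, Rapgef4, a Rap exchange factor whose start is 434 kb away, was the one called by the study's limit, near the share of 7.35% over all genes, and it also passed the adjusted limit (adjusted p = 0.0335 by edgeR). Around Prrx2, 18 genes were tested, with a median of -0.15 and a range from -1.47 to 0.47. There Ptges, the gene of a prostaglandin E synthase with its start 94.9 kb away (adjusted p = 0.0165 by edgeR), and Ier5l (adjusted p = 0.196 by edgeR) were called by the study's limit, and only Ptges of these passed the adjusted limit. These 3 neighbours were singled out after their values were seen. The median over the 1028 tested genes of chromosome 2 was -0.02.

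**Figure D4:**
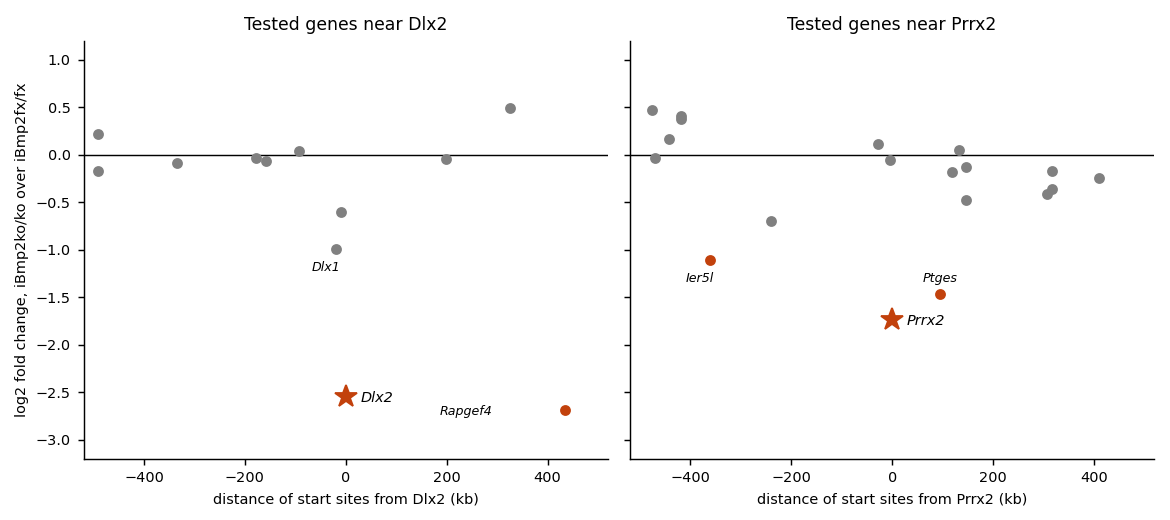
Fitted log2 fold change of iBmp2ko/ko over iBmp2fx/fx cells for the tested genes within 500 kb of the start of Dlx2 (left) and Prrx2 (right), against the distance between start sites in kb. Stars mark Dlx2 and Prrx2, red points passed the study's limit, and most neighbours lie near 0, with medians of -0.06 (Dlx1 left out) and -0.15.

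The genes whose levels ran most like those of Dlx2, Prrx2 and Dlx1, the 3 members with the widest range, were found by the root mean square difference of centred log2 CPM over all 8 libraries. For Dlx2, whose range was 3.95, these were 6330512M04Rik (0.27), Id2 (0.29) and Id1 (0.29). The Id genes code for inhibitors of bHLH factors. Id2 had 8808, 7831 and 9066 reads in iBmp2fx/fx cells at 6, 48 and 72 h, and 453, 507 and 1691 in iBmp2ko/ko cells, with 6342 and 7297 at 24 h, so that it too was lowest at 6 and 48 h and higher at 72 h in iBmp2ko/ko cells. For Prrx2, with a range of 2.23, they were Rsph1 (0.17, on 3 to 33 reads), Slco4a1 (0.21) and Rhou (0.22). For Dlx1, with a range of 1.67, they were 7530420F21Rik (0.12), Pdgfa (0.14) and Gcnt4 (0.15). The likeness is a description of 8 libraries of 2 genotypes and was not tested.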

How the data were processed

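The authors sequenced 8 total RNA libraries and deposited raw read counts per gene and per lncRNA, made per the labels with CASAVA 1.8.2, TopHat2 2.0.8b and HTSeq on mm9. Annotation and strand setting are not given in the sources used here, and the labels give single-end reads where the methods give paired reads. HTSeq's summary lines were left out, and 41.3 to 49.6% of alignments were not unique. Counts were scaled by TMM in edgeR 4.0.16 (R 4.3.3, limma 3.58.1), filtered by filterByExpr and fitted by glmQLFit and glmQLFTest with Benjamini-Hochberg adjustment over all genes. DESeq2 1.42.0 and limma were alternatives. RPKM used merged exon lengths of GENCODE M1 (95.7% of symbols matched). The paper's pipeline tested log2 RPKM; the unit here, counts, took the count test. Deviations from the group means of the libraries of 1 time correlated (0.71, 0.54 and 0.84 at 6, 48 and 72 h), so culture times pair the libraries. Every member was named, and in each list those past a limit. The fits were tested on simulated data. The members and lists were chosen with earlier results of these data known. The intervals cover counting error only.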

Additional observations from a re-analysis of the deposited data

Results flagged for a closer look

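Among 21 genes of the text, looked at as 42 groups of 4 libraries, 3 groups had a library far from the others, while chance alone marks about 1 group in 20. Dlx3 stood at 4.31 CPM in the iBmp2ko/ko library of 24 h, with the gap to the next library making up 0.992 of the group's range. Fgf10 stood at 8.28 CPM in the iBmp2fx/fx library of 6 h, with a gap of 0.881 of the range. Sfrp2 stood at 4.58 CPM in the iBmp2ko/ko library of 6 h, with a gap of 0.916.

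For 6 members the log2 ratio of iBmp2ko/ko over iBmp2fx/fx had one sign at 6, 48 and 72 h and the opposite sign at 24 h, where it was 0.088 for Msx1, 0.19 for Msx2, -0.30 for Pax9, 0.16 for Lhx6, 0.39 for Dlx2 and 0.15 for Prrx2. Each of these rests on 1 library per genotype at 24 h and was not tested as a single value. The term for 24 h given for Dlx2 and Prrx2 did not pass after adjustment.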

How the results depend on the processing

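No member changed the sign of its fold change under any alternative fit. Members called by the study's limit numbered 2 (7.35% of all genes), and 1 with all 8 libraries (3.55%). With the block on 6 libraries Dlx1 made them 3 (9.46% of all genes). It did so too with total-count scaling (7.25%), with no filter (7.39%) and with at least 10 counts in every library (5.49%). The same held without the iBmp2fx/fx library of 6 h (7.91%) or the iBmp2ko/ko library of 72 h (10%). Members called by the adjusted limit numbered 1. With all 8 libraries there were 0, with and without the replicate block. With the block on 6 libraries there were 3 (8.45% of all genes). With the block and both libraries of 6, 48 or 72 h left out, there were 3, 2 (Dlx1 lost) and 3. Those fits called 7.47%, 7.88% and 8.09% of all genes, and this alternative was chosen after seeing the data. DESeq2 called 2. Leaving out 1 library at a time gave 0 to 2: 0 without either library of 6 h (0.66% and 0.675% of all genes called, iBmp2fx/fx and iBmp2ko/ko) or of 48 h (0.105% and 0.0676%), against 2.19% with all 6 libraries, and 2 (2.83% of all genes) without the iBmp2ko/ko library of 72 h, when the Dlx2 fold change was -3.74 (edgeR, adjusted p = 0.00171). For Prrx2 the adjusted p (edgeR) then ran from 0.0107 to 0.0757. Calls among the other jaw and dental mesenchyme factors went from 9 to 5 with all 8 libraries. Of the alternative member fold changes, 129 stayed on their side of the study's limit, 6 passed it anew (all of Dlx1) and 1 no longer passed (Dlx2 with 8 libraries). The other 56 counts stayed within 1.5 times the main value. The cause of each change was not tested.

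Depth limits Barx1 and Lhx8, at or under the floor in every library, and Pax9 and Msx2, with the fewest reads among the members tested. Single libraries per genotype and time give no replicate of any one time.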
